A study of Mus musculus with 8 samples.

Results

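The genes described here carry sugar into the cell and break it down to pyruvate and lactate, or sense oxygen and regulate that breakdown. They were chosen from 40 named symbols that cover hexose transporters, the glycolytic enzymes and their regulators, pyruvate dehydrogenase kinases, lactate carriers, hypoxia regulators and the pentose phosphate pathway. A symbol was kept when its mean over the 8 mice was 10 or more normalized counts, and 38 genes among the 53801 rows of the table met this rule. The kept gene with the lowest mean was Pfkfb1 at 23.4. Those below the limit were Egln3 at 4.68 and Pdk4 at 1.02, together with a second row under the symbol Aldoa (ENSMUSG00000114515) at 1.48, and nothing further is drawn from them.

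RNA was sequenced from microglia, the resident macrophages of the brain, obtained by sorting from cortical tissue at postnatal day 30. The 4 IL-33 mice (mice 1 and 2 female, mice 3 and 4 male) received IL-33, a cytokine of the interleukin-1 family, into 1 cerebral ventricle and were killed 4 h later. The 4 vehicle mice (mice 5 and 6 female, mice 7 and 8 male) were injected and killed the same way with vehicle, which the column headers call PBS. Strain, genotype, IL-33 dose and the sorting markers were not given in the sources used here, and uninjected mice were not analysed here.

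In glycolysis, hexokinases trap glucose by phosphorylating it, phosphofructokinase commits the sugar to the pathway, and a chain of shared enzymes yields pyruvate. Pyruvate either becomes lactate or enters mitochondria through the pyruvate dehydrogenase complex, which the PDK kinases switch off. Under low oxygen, or in activated macrophages, the transcription factor HIF-1 raises many of these genes, while EGLN hydroxylases and the VHL ubiquitin ligase mark its alpha subunit for degradation. Within the brain, the fructose transporter gene Slc2a5 is known as a microglial marker.

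Normalized counts are read counts divided by 1 size factor per library, and fold changes are differences of mean log2(normalized count + 1) between IL-33 and vehicle mice, given with their standard error (SE). A gene was called higher or lower at a Benjamini-Hochberg adjusted p under 0.05 in the limma fit over 15110 genes. The verbs rose and fell are used for called genes. The p-values set each difference against the spread between mice that is left after treatment and sex. Gene coordinates are GRCm38 spans from GENCODE M21.

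The reads recovered from the deposited values numbered 6989640 to 9323677 per mouse. Of 10 microglial marker genes, 7 fell with IL-33 and 0 rose, and their summed level was 97696 to 110256 normalized counts in IL-33 mice and 173054 to 197692 in vehicle mice. The markers S100a8, S100a9, Ly6g, Mpo, Elane and Mmp9 of neutrophils were at 0 in all mice, as were the T and NK cell markers Cd3e, Nkg7 and Gzma. The neutrophil list also holds Csf3r, which was at 3920 to 4960 in IL-33 mice and 4244 to 6258 in vehicle mice and passed the test (-0.34 ± 0.11, adjusted p = 0.0217). It was not called without IL-33 mouse 3 (-0.32, adjusted p = 0.0554) or 4 (-0.26, adjusted p = 0.0711), nor without vehicle mouse 5 (-0.29, adjusted p = 0.0726), 7 (-0.30, adjusted p = 0.0659) or 8 (-0.28, adjusted p = 0.0756). The T and NK cell markers summed to 4.96 to 16.2 in IL-33 mice and 0.841 to 2.75 in vehicle mice, with Cd8a at 3.85 in IL-33 mice and 0 in vehicle mice and Klrb1c at 5.55 in IL-33 mice and 1.42 in vehicle mice on average, both without overlap and too low to be tested. Vehicle mouse 7 had the highest haemoglobin and Rgs5 values, with 54.0 normalized counts of Hbb-bs and 138 of Rgs5, a mural marker. In bulk RNA, fewer cells of a type and less RNA per cell cannot be told apart.

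The promoters of 4 genes are shown because these had the largest called changes among the 38, Eno2 and Slc2a6 upwards and Pdk2 and Slc2a5 downwards. Each is the 250 bases before the RefSeq start (GRCm38.p6), read 5′ to 3′ on the gene's strand, with the core of the hypoxia response element (ACGTG or GCGTG, on either strand) in capitals.

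Eno2 (chr6:124769674-124769923, minus strand): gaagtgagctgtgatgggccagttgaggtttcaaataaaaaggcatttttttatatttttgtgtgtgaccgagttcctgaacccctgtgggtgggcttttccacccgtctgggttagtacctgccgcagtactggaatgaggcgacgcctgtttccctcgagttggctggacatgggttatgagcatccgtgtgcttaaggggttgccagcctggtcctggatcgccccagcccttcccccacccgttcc
Slc2a6 (chr2:27027999-27028248, minus strand): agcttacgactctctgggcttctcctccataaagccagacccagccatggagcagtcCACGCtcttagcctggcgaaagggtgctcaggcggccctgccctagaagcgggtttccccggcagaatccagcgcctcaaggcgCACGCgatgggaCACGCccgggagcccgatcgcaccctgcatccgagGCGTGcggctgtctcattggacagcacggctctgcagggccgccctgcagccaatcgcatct
Pdk2 (chr11:95041372-95041621, minus strand, the more upstream of its 2 annotated starts): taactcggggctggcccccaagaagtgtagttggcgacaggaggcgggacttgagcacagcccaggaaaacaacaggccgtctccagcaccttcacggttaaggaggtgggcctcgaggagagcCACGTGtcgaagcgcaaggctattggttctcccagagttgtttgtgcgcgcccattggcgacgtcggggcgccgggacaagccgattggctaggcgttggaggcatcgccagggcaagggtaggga
Slc2a5 (chr4:150119094-150119343, plus strand): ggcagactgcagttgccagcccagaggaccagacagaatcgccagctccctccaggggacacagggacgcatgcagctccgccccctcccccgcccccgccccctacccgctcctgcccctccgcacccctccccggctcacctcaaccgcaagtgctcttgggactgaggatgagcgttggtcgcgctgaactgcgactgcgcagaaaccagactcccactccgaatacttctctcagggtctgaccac

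The Slc2a6 sequence held 4 cores, the first base of each lying 193, 109, 97 and 62 bases before the start. The Pdk2 sequence held a palindrome that reads as a core on both strands. Eno2, which rose most, had none in this window, nor did Slc2a5. Over the 300-base windows that also take in the 50 bases after each start, 42 of 57 windows of 37 members held a core (73.7%), against 43.8% of all 32851 promoter windows in the table. The share was 76.0% (19 of 25 windows) for genes that rose, 60.0% (6 of 10) for genes that fell and 77.3% (17 of 22) for genes not called. A loose NF-kB pattern (GGGNNNNNCC, either strand) stood in 41 of 57 windows (71.9%), against 50.8% of all windows. It was in 19 of 25 windows of genes that rose, 9 of 10 of genes that fell and 13 of 22 of genes not called. Windows of 1 gene can overlap, as some of Eno1 do, so 1 match can be counted more than once. The comparison with all windows took no account of base content. These are matches of letters and not measured binding, and Slc2a3 was not matched.

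After IL-33, 19 of the 38 genes rose (50%, against 29.2% of all genes tested) and 7 fell (18.4%, against 28.5%). The rises ran through glucose entry (Slc2a1), the phosphofructokinase activator gene Pfkfb3 and most enzymes from aldolase to lactate dehydrogenase. In the pentose phosphate pathway G6pdx, Pgd and Tkt rose. The falls were the fructose transporter Slc2a5, the hexokinases Hk1 and Hk3, the regulator Pfkfb4 and the pyruvate dehydrogenase kinases Pdk1 and Pdk2. The oxygen sensor Egln1 also fell, though its groups overlapped. The largest rise was that of an enolase isoform, Eno2, with a 25.9-fold ratio of group means, and the largest fall that of Pdk2, whose mean in IL-33 mice was 0.126 of that in vehicle mice.

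All 38 genes passed the filter on low values. Called genes made up 68.4% of the 38, against 57.7% of all genes tested. The median log2 fold change was 0.35 over the 38 and 0.02 over all tested genes. A rise of 1 or more on the log2 scale was called for 7 genes (18.4%, against 11.2% of all genes) and a fall of that size for 5 (13.2%, against 14.3%). The groups did not overlap for 24 of the 38 genes (63.2%, against 52.3% of all genes tested), for 17 upwards (44.7%, against 26.7% of all genes) and 7 downwards (18.4%, against 25.6%), and 23 of the 24 were called. In the authors' deposited table, which lists 7029 genes, 17 of the 38 were higher and 6 lower, and all 23 had the same direction here; Hk2, Slc16a3 and Egln1 were called here and not listed there. The highest adjusted p in the authors' deposited table is 0.00996, and these 3 genes had 0.0179, 0.0359 and 0.0298 here, above it.

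**Figure D1:**
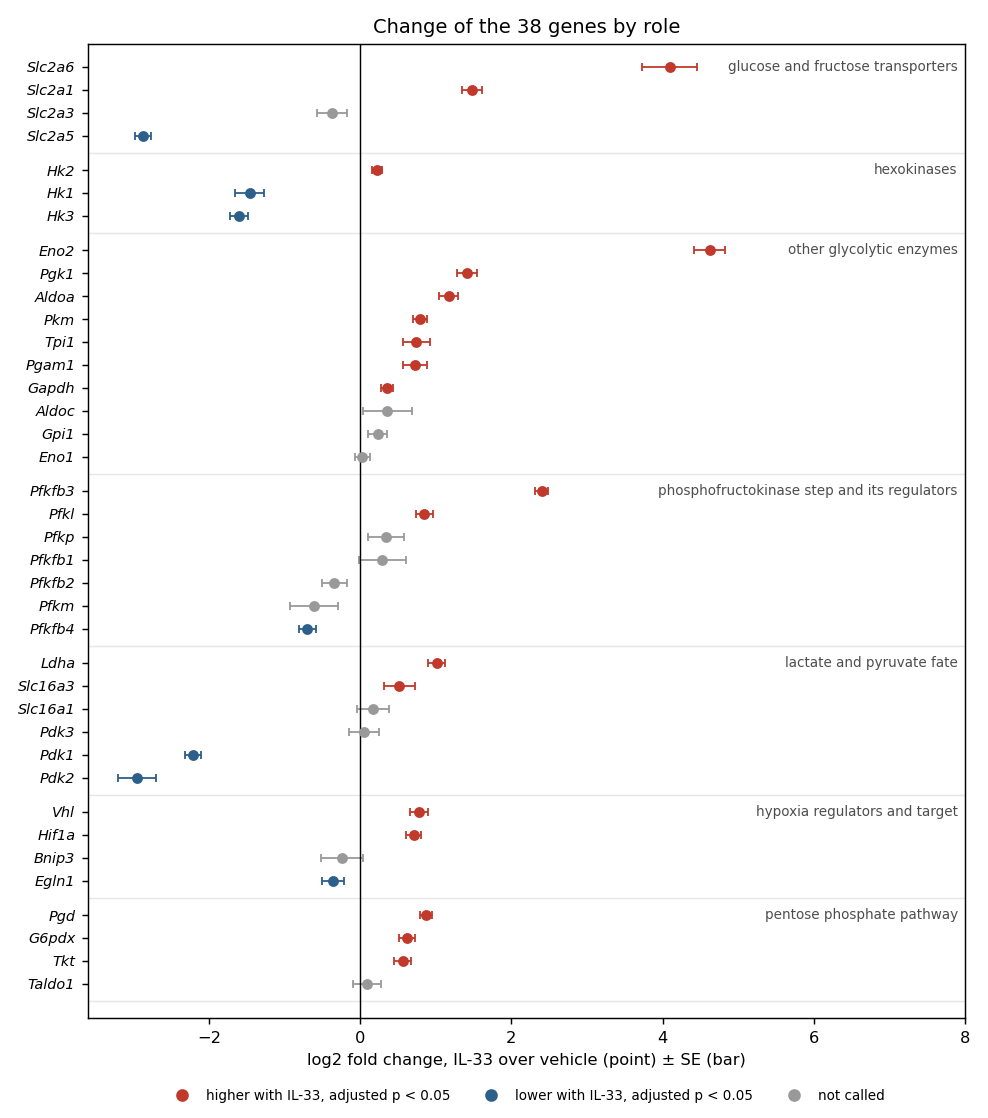
Log2 fold change of each of the 38 genes, IL-33 over vehicle (x axis; point, with a bar of 1 SE), grouped by role down the page; red points rose, blue points fell and grey points were not called. Eno2 at 4.62 and Slc2a6 at 4.09 lie farthest right, and Pdk2 at -2.95 and Slc2a5 at -2.87 farthest left.

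Among the 4 sugar transporters, 2 rose, 1 fell and 1 was not called. Slc2a1 (ENSMUSG00000028645, chr4:119108711-119137983) encodes GLUT1, the general glucose transporter of many cell types and of brain endothelium. It had 1945, 1650, 1375 and 1401 normalized counts in IL-33 mice 1 to 4, against 501, 781, 582 and 450 in vehicle mice 5 to 8. Every IL-33 mouse lay above every vehicle mouse, and the log2 fold change was 1.48 ± 0.13 (SE, adjusted p = 1.43e-07). The endothelial marker Cldn5 was at 0 in 3 IL-33 and 3 vehicle mice and at most 2.98 in the others, and the summed endothelial and mural markers were 219 to 301 in IL-33 mice and 339 to 513 in vehicle mice. Of the 3 tested markers of that list, Pecam1 (-0.61) and Kdr (-1.85) fell, while Pdgfrb, a mural marker, rose to 56.6 ± 15.4 in IL-33 mice, against 9.42 ± 4.23 in vehicle mice (SD, n = 4 each; log2 fold change 2.54 ± 0.36, adjusted p = 9.08e-06), and their part in the Slc2a1 result was not tested.

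Slc2a5 (ENSMUSG00000028976, chr4:150119283-150144169), the fructose transporter gene, moved the other way. Its values were 337, 249, 252 and 206 in IL-33 mice, against a narrow 1845, 1900, 1932 and 1870 in vehicle mice. The groups were far apart, with a log2 fold change of -2.87 ± 0.11 (adjusted p = 8.78e-13). Of the 10 microglial markers, 7 also fell, by amounts from -0.67 (Tmem119) to -2.85 (P2ry12) on the log2 scale, and Cx3cr1 (-0.13), Aif1 (0.13) and C1qa (0.29) were not called. Their part in this result was not tested.

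Slc2a6 (ENSMUSG00000036067, chr2:27021363-27027998) encodes GLUT6, a transporter placed on lysosomal membranes in mouse macrophages. It was at 102, 105, 135 and 99.1 in IL-33 mice and at 6.73, 5.45, 11 and 2.0 in vehicle mice, from 439 and 27 reads in all. Vehicle levels were thus close to the detection limit while all IL-33 mice were clear of it. The log2 fold change was 4.09 ± 0.36 (adjusted p = 3.6e-08), and 3.40 when the pseudocount was 5.

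Slc2a3 encodes GLUT3, best known as the neuronal glucose transporter. Its values were 92.3, 107, 88.5 and 108 in IL-33 mice and 178, 90.5, 153 and 108 in vehicle mice, so the groups overlapped (log2 fold change -0.37 ± 0.20, adjusted p = 0.125). Without vehicle mouse 6 the difference was -0.57 (adjusted p = 0.0107).

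Counted per exon length, the make-up of the 4 transporters turned over. Slc2a1 supplied 75.4% to 79.6% of their summed level in IL-33 mice, against 18.5% to 28.0% in vehicle mice. Slc2a5 supplied 12% to 14.2% in IL-33 mice, against 70.2% to 79.2% in vehicle mice. The sum itself was 579.1 ± 87.9 normalized counts per kilobase of exon in IL-33 mice and 739.7 ± 46.0 in vehicle mice (SD, n = 4 each). Among the 38 genes Slc2a5 had rank 21 per kilobase in IL-33 mice and rank 2 in vehicle mice.

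**Figure D2:**
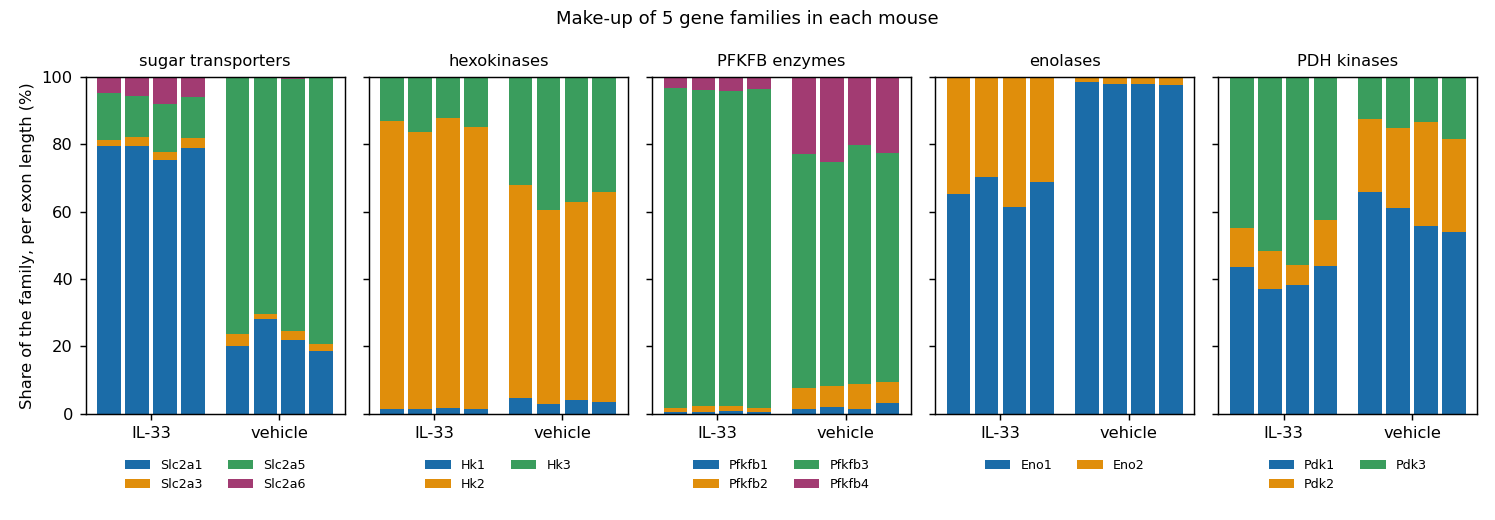
Share (y axis, percent) of each gene in the summed level of its family per exon length, with 1 stacked bar per mouse, the 4 IL-33 mice left of the 4 vehicle mice in each panel. Slc2a1, Hk2, Pfkfb3, Eno2 and Pdk3 took larger shares in every IL-33 mouse than in any vehicle mouse.

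Of the 3 hexokinases, 1 rose slightly and 2 fell. Hk3 (ENSMUSG00000025877, chr13:55005985-55021385), the hexokinase typical of myeloid cells, was at 204, 246, 193 and 258 in IL-33 mice, against 607, 749, 711 and 658 in vehicle mice. The groups did not overlap (log2 fold change -1.60 ± 0.12, adjusted p = 3e-09). Hk1 (ENSMUSG00000037012, chr10:62268855-62379908), the constitutive form that dominates whole brain, was at 50.7, 53.6, 65.9 and 61.2 in IL-33 mice, against 207, 120, 176 and 151 in vehicle mice. It also fell without overlap (-1.46 ± 0.19, adjusted p = 2.85e-06).

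Hk2, the inducible form that binds mitochondria, was the most abundant hexokinase in both groups. It had 2166, 2013, 2199 and 2366 normalized counts in IL-33 mice and 1956, 1769, 1840 and 1950 in vehicle mice. The groups did not overlap, but they lay close together, at a log2 fold change of 0.22 ± 0.07 (adjusted p = 0.0179). It was not called with quantile normalization (0.16, adjusted p = 0.0755), without IL-33 mouse 4 (0.19, adjusted p = 0.0723) and without vehicle mouse 7 (0.19, adjusted p = 0.0609). Hk2 supplied 82.2% to 86.0% of hexokinase level per exon length in IL-33 mice, against 57.7% to 63.4% in vehicle mice, while the sum was 434.2 ± 27.5 per kilobase in IL-33 mice and 518.9 ± 4.34 in vehicle mice (SD, n = 4 each).

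Of 7 genes at the phosphofructokinase step, 2 rose, 1 fell and 4 were not called. Pfkfb3 (ENSMUSG00000026773, chr2:11471433-11554077) makes fructose 2,6-bisphosphate, the strongest activator of phosphofructokinase. It reached 8391, 6738, 6577 and 7739 normalized counts in IL-33 mice, against 1464, 1294, 1467 and 1334 in vehicle mice. Each IL-33 mouse was several times above every vehicle mouse, with a log2 fold change of 2.40 ± 0.09 (adjusted p = 3.27e-13).

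Pfkfb4, a related enzyme with both kinase and phosphatase activity, fell by 0.70 on the log2 scale (SE 0.11, adjusted p = 4.42e-05), with 175 to 187 normalized counts in IL-33 mice and 268 to 316 in vehicle mice. Per exon length Pfkfb3 accounted for 93.7% to 95.2% of the PFKFB sum in IL-33 mice and for 66.5% to 71.0% in vehicle mice. That sum was 1030.9 ± 112 per kilobase in IL-33 mice, against 267.3 ± 10.2 in vehicle mice (SD, n = 4 each).

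Pfkl, the liver-type phosphofructokinase subunit and the main one here, rose by 0.85 ± 0.11 (adjusted p = 3.15e-06), with 609 to 854 in IL-33 mice and 347 to 394 in vehicle mice. Pfkm, the muscle-type subunit, was at 13.2, 28.8, 36.7 and 18.9 in IL-33 mice and 44.6, 36.0, 30.2 and 32.0 in vehicle mice, and was not called (-0.61 ± 0.32, adjusted p = 0.111). Without IL-33 mouse 3 its difference was -0.87 (adjusted p = 0.0317).

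Pfkfb2, the heart-type form, was at 86.2, 117, 94.1 and 107 in IL-33 mice and 126, 118, 148 and 120 in vehicle mice. The IL-33 mice were all lower, though the nearest mice of the groups almost met, and the gene missed the call (-0.34 ± 0.16, adjusted p = 0.0776; -0.44 and adjusted p = 0.041 without IL-33 mouse 2). Pfkp, the platelet-type subunit, averaged 46.1 in IL-33 mice and 36.8 in vehicle mice (0.34 ± 0.24, adjusted p = 0.235), and Pfkfb1, the liver-type form, 25.6 in IL-33 mice and 21.3 in vehicle mice (0.29 ± 0.31, adjusted p = 0.446). Pfkp shares 748 exon bases with Pitrm1 on the opposite strand, which averaged 353.09, so without a stated strand setting its reads are uncertain.

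Of the other 10 glycolytic enzymes, 7 rose, 0 fell and 3 were not called, with a median log2 fold change of 0.74. Eno2 (ENSMUSG00000004267, chr6:124760053-124769673) encodes the gamma enolase known as neuron-specific enolase. It was at 586, 435, 538 and 362 in IL-33 mice, against 13.5, 18.5, 20.1 and 22.0 in vehicle mice. The lowest IL-33 mouse stood far above the highest vehicle mouse, and the log2 fold change was 4.62 ± 0.20 (adjusted p = 3.13e-12).

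None of the 4 tested neuronal markers was called: summed over 8 markers they were 156 to 231 in IL-33 mice and 165 to 274 in vehicle mice, and Snap25 was at 94.3 to 102 in IL-33 mice and 79.1 to 181 in vehicle mice (-0.10 ± 0.21, adjusted p = 0.692). Eno1, the general enolase, was the more abundant form in both groups and was not called, at 909 to 1258 in IL-33 mice and 986 to 1111 in vehicle mice (0.03 ± 0.10, adjusted p = 0.838). Per exon length Eno2 made up 29.6% to 38.5% of enolase in IL-33 mice, against 1.44% to 2.30% in vehicle mice.

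**Figure D3:**
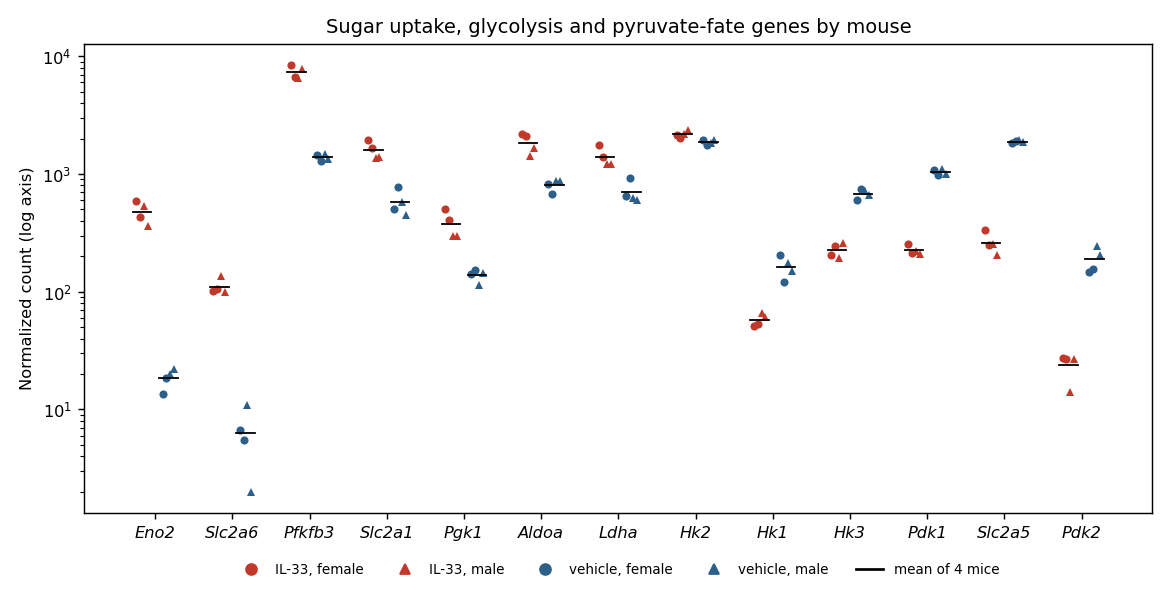
Normalized count (log y axis) of 13 genes in each mouse, IL-33 in red left of vehicle in blue, circles for females, triangles for males and a line for the mean of 4 mice. The 4 IL-33 and 4 vehicle mice do not overlap for any gene drawn, and the Eno2, Slc2a6 and Pdk2 groups are farthest apart.

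Aldoa (ENSMUSG00000030695), the main aldolase, had 2176, 2096, 1414 and 1651 in IL-33 mice, against 818, 675, 871 and 869 in vehicle mice. The groups did not overlap, and the 2 female IL-33 mice were the highest (log2 fold change 1.17 ± 0.13, adjusted p = 3.6e-06). Pgk1 (ENSMUSG00000062070), phosphoglycerate kinase, which makes the pathway's first ATP, was at 508, 405, 296 and 298 in IL-33 mice and 142, 154, 113 and 144 in vehicle mice. It rose without overlap by 1.41 ± 0.13 (adjusted p = 8.99e-08). Pkm, pyruvate kinase, rose by 0.79 ± 0.09 (adjusted p = 5.4e-07), with 1215 to 1709 in IL-33 mice and 733 to 872 in vehicle mice; Gm49759 lies over 767 of its exon bases on the same strand.

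Gapdh, the dehydrogenase often used as a reference gene, had 5537, 4507, 3844 and 3750 in IL-33 mice and 3618, 3336, 3308 and 3360 in vehicle mice. It rose without overlap by 0.36 ± 0.08 (adjusted p = 0.00167). Among males alone it was not called (0.19, adjusted p = 0.061). Annotated Gapdh pseudogenes, 169 in number, held counts equal to 14.885% of those of Gapdh, so its reads are partly uncertain.

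Tpi1, triosephosphate isomerase, was at 346, 288, 199 and 134 in IL-33 mice and 131, 142, 135 and 133 in vehicle mice. IL-33 mouse 4 lay inside the vehicle range and the other 3 above it (0.74 ± 0.18, adjusted p = 0.00253; 0.28 and adjusted p = 0.278 among males alone). Pgam1, phosphoglycerate mutase, was at 307, 251, 185 and 262 in IL-33 mice and 135, 136, 169 and 154 in vehicle mice. It rose without overlap by 0.73 ± 0.16 (adjusted p = 0.000606), but was not called among males alone (0.44, adjusted p = 0.0594).

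Gpi1, glucose-6-phosphate isomerase, was at 656, 612, 464 and 514 in IL-33 mice and 448, 415, 542 and 495 in vehicle mice. The groups overlapped and it was not called (0.23 ± 0.12, adjusted p = 0.102); it was called among females alone (0.55, adjusted p = 0.00719), without IL-33 mouse 3 (0.33, adjusted p = 0.033) and without vehicle mouse 7 (0.32, adjusted p = 0.0386). Aldoc, an aldolase best known from astrocytes, averaged 27.9 in IL-33 mice and 22.7 in vehicle mice (0.36 ± 0.32, adjusted p = 0.347). The astrocyte markers Gfap and Aldh1l1 were at most 7.10 and 6.59 in IL-33 mice and 4.21 and 4.36 in vehicle mice. The 8 astrocyte markers summed to 2409 to 2657 in IL-33 mice and 1573 to 1864 in vehicle mice. Most of this sum was Slc1a3, at 2071 in IL-33 mice and 1330 in vehicle mice on average. Of 4 tested, Slc1a3 rose (0.64 ± 0.08, adjusted p = 2.25e-06), Aqp4 fell (-1.40 ± 0.46, adjusted p = 0.0158) and 2 were not called. Aqp4 was not called without IL-33 mouse 1 (-1.09, adjusted p = 0.0627) or vehicle mouse 6 (-0.99, adjusted p = 0.0759). Gja1, too low to be tested, averaged 11.6 in IL-33 mice and 4.25 in vehicle mice without overlap.

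Summed over 14 core enzymes from Gpi1 to Ldha, the level was 15774, 13289, 11116 and 11025 normalized counts in IL-33 mice, against 8263, 8141, 8105 and 8078 in vehicle mice. All IL-33 sums lay above the vehicle sums, which spanned a narrow range. The enzymes did not move by equal amounts: over the 14 the log2 fold changes ran from -0.61 for Pfkm, which was not called, to 4.62 for Eno2. Per kilobase of exon Gapdh was the highest of the 38 genes in both groups, at 1067 in IL-33 mice and 824 in vehicle mice, and Pfkfb3 had rank 2 in IL-33 mice and rank 8 in vehicle mice.

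Of the 6 genes that decide the fate of pyruvate, 2 rose, 2 fell and 2 were not called. Ldha (ENSMUSG00000063229), the lactate dehydrogenase subunit that favours lactate formation, was at 1757, 1387, 1213 and 1227 in IL-33 mice and 649, 920, 620 and 600 in vehicle mice. It rose without overlap by 1.01 ± 0.11 (adjusted p = 2.93e-07). Ldhb, the subunit that favours pyruvate formation, is not among the 38 and was named after its values were seen. It fell, with 577 to 674 in IL-33 mice and 1612 to 1843 in vehicle mice (-1.43 ± 0.08, adjusted p = 8.01e-11).

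Pdk1 (ENSMUSG00000006494, chr2:71873224-71903858), a kinase that inactivates pyruvate dehydrogenase and a classical HIF-1 target, fell. It was at 256, 214, 220 and 210 in IL-33 mice, against 1088, 983, 1100 and 995 in vehicle mice, a log2 fold change of -2.21 ± 0.10 (adjusted p = 3.98e-12). Pdk2 (ENSMUSG00000038967, chr11:95026258-95041354), the broadly expressed form, was at 27.4, 26.8, 14.1 and 26.7 in IL-33 mice and 146, 155, 245 and 206 in vehicle mice (-2.95 ± 0.25, adjusted p = 1.53e-08). For both kinases the groups were far apart, in the direction opposite to that of Ldha.

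Pdk3, an X-linked form, was not called, at 66.8 to 106 in IL-33 mice and 67.3 to 111 in vehicle mice (0.05 ± 0.20, adjusted p = 0.842). Per exon length it made up 42.4% to 55.9% of PDK level in IL-33 mice, against 12.4% to 18.3% in vehicle mice. The PDK sum was 71.5 ± 6.60 per kilobase in IL-33 mice and 227.1 ± 21.5 in vehicle mice (SD, n = 4 each).

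Slc16a3 encodes MCT4, the lactate exporter of glycolytic cells. It was at 263, 223, 125 and 138 in IL-33 mice and 95.1, 144, 139 and 123 in vehicle mice. The female IL-33 mice were above all vehicle mice and the male ones inside their range. It passed the test (0.52 ± 0.20, adjusted p = 0.0359), but the difference was 0.01 (adjusted p = 0.982) among males alone, and the gene was not called without IL-33 mouse 1 (0.37, adjusted p = 0.144) or mouse 2 (0.47, adjusted p = 0.105), and without vehicle mouse 5 (0.30, adjusted p = 0.154) or mouse 6 (0.54, adjusted p = 0.0564). Slc16a1, which encodes MCT1, averaged 104 in IL-33 mice and 93.3 in vehicle mice (0.17 ± 0.21, adjusted p = 0.5).

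Of the 4 hypoxia genes, 2 rose, 1 fell and 1 was not called. Hif1a, the oxygen-regulated subunit of HIF-1, was at 1556, 1245, 1183 and 1171 in IL-33 mice and 693, 760, 866 and 824 in vehicle mice. It rose without overlap by 0.71 ± 0.10 (adjusted p = 1.29e-05). Vhl rose by 0.78 ± 0.12 (adjusted p = 2.03e-05), with 471 to 584 in IL-33 mice and 249 to 342 in vehicle mice. Both the factor and the ligase subunit that recognises it for degradation were thus higher at the RNA level.

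Egln1 encodes PHD2, the main oxygen-sensing hydroxylase. It was at 384, 281, 211 and 275 in IL-33 mice and 363, 351, 361 and 372 in vehicle mice, with 3 IL-33 mice below the vehicle range and mouse 1 above it. It passed the test (-0.36 ± 0.14, adjusted p = 0.0298), but not without IL-33 mouse 2 (-0.32, adjusted p = 0.0921) or mouse 3 (-0.24, adjusted p = 0.142), nor without vehicle mouse 7 (-0.32, adjusted p = 0.0897) or mouse 8 (-0.30, adjusted p = 0.103). Bnip3, a mitophagy receptor gene induced by HIF-1 in many cells, was at 103, 55.6, 50.8 and 44.5 in IL-33 mice and 77.4, 44.7, 89.7 and 83.1 in vehicle mice. It was not called (-0.24 ± 0.28, adjusted p = 0.478), although it was among males alone (-0.85, adjusted p = 0.0134).

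Of the 4 pentose phosphate enzymes, which divert glucose 6-phosphate into NADPH and ribose, 3 rose and 1 was not called. Pgd, 6-phosphogluconate dehydrogenase, was at 1654, 1711, 1451 and 1563 in IL-33 mice and 899, 860, 927 and 809 in vehicle mice. It rose without overlap by 0.87 ± 0.08 (adjusted p = 5.4e-08). G6pdx, the entry enzyme, rose by 0.62 ± 0.11 (adjusted p = 7.97e-05), with 664 to 969 in IL-33 mice and 501 to 567 in vehicle mice, and Tkt, transketolase, by 0.56 ± 0.11 (adjusted p = 0.000437), with 418 to 514 in IL-33 mice and 267 to 388 in vehicle mice.

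Taldo1, transaldolase, was at 352, 307, 241 and 190 in IL-33 mice and 268, 185, 264 and 293 in vehicle mice, and was not called (0.09 ± 0.19, adjusted p = 0.704). It was called among females alone (0.56, adjusted p = 0.0418). A pseudogene copy, Gm17823, held counts equal to 10.879% of those of Taldo1. Summed over the 4 enzymes, the level was 3406, 3501, 2773 and 2979 in IL-33 mice and 2056, 1865, 2070 and 1937 in vehicle mice.

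The IL-33 mice were not equal in these genes. Mouse 1 had the highest value of its group in 23 of the 38 genes (60.5%), against 31.1% of all tested genes, and mice 3 and 4, both male, had the lowest in 16 each (42.1%), against 25.6% and 28.0% of all tested genes. The signed log2 fold change was more positive, or less negative, in females than in males for 32 of the 38 genes (84.2%), against 51.8% of all tested genes. For genes that fell, such as Slc2a5 and Pdk2, this means a smaller fall in females. Whether the change differed by sex was tested with an interaction of treatment and sex, on 2 mice of each kind.

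By limma this interaction passed the adjusted threshold for 0 of the 38 genes (lowest adjusted p 0.228, Aldoa), against 0.00662% of all tested genes. Both edgeR and DESeq2 called 0 of the 38 too, against 1 (edgeR) and 29 (DESeq2) of all 15110 tested genes. At an unadjusted p under 0.05 there were 11 of 38 by limma (28.9%), 11 by edgeR and 11 by DESeq2, against 8.31% of all tested genes by limma. The 11 by limma were Gpi1, Aldoa, Tpi1, Gapdh, Eno1, Pdk2, Slc16a3, Hif1a, Bnip3, G6pdx and Taldo1, each with the more positive change in females. Aldoa had log2 fold changes of 1.52 in females and 0.81 in males (difference 0.71 ± 0.17), and Tpi1 of 1.20 in females and 0.28 in males (difference 0.92 ± 0.29, adjusted p = 0.356). Pdk2 had log2 fold changes of -2.43 in females and -3.46 in males (difference 1.03 ± 0.43, adjusted p = 0.518). Sex itself, over both treatments, was called for 0 of the 38 genes by limma (lowest adjusted p 0.874), against 0.0596% of all tested genes. For sex, 6 of the 38 had an unadjusted limma p under 0.05. The share of all tested genes at that limit was not worked out, so nothing is drawn from the 6.

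**Figure D4:**
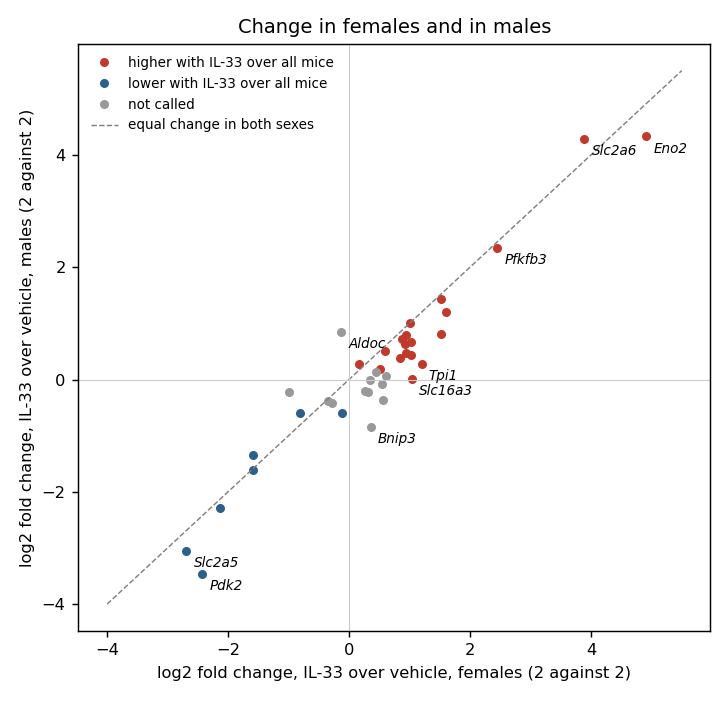
Log2 fold change, IL-33 over vehicle, in females (x axis, 2 mice against 2) and in males (y axis, 2 against 2), with a dashed line of equal change; colours mark the call over all mice. Of 38 points, 32 lie below the line, among them Tpi1, Slc16a3 and Bnip3, and the interaction was called for 0.

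Genes of the same pathways outside the 38 moved in both directions. Over the 6 added pathway lists together, 23 tested genes rose and 22 fell. The lists held 15, 8, 13, 14, 12 and 18 tested genes. The shares that rose and fell were thus close to those of all genes tested, 29.2% and 28.5%. Nothing particular to these pathways is drawn from the pooled counts. Of 15 tested genes among other sugar transporters and glycolysis genes, 5 rose and 6 fell, with a median log2 fold change of -0.22. Slc2a8, a transporter of intracellular membranes, fell to 39.1 ± 8.37 in IL-33 mice, against 222 ± 37.5 in vehicle mice (SD, n = 4 each; -2.49 ± 0.20, adjusted p = 8.24e-09). Slc2a9, a urate transporter, changed by -1.91 ± 0.18 (adjusted p = 5.37e-08), and Galm, which interconverts the glucose anomers, by -1.97 ± 0.27 (adjusted p = 6.78e-06).

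Of 8 other pentose phosphate genes, 1 rose and 3 fell (median -0.08). The falls were H6pd, the bifunctional enzyme of the endoplasmic reticulum (-0.98 ± 0.10, adjusted p = 1.51e-07), Prps2, which makes phosphoribosyl pyrophosphate (-1.13 ± 0.10, adjusted p = 3.01e-08), and Shpk, sedoheptulokinase, at 12.1 ± 1.73 in IL-33 mice and 45.7 ± 12.4 in vehicle mice (-1.80 ± 0.29, adjusted p = 5.08e-05).

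Of 13 genes of the pyruvate dehydrogenase complex and pyruvate import, 3 rose and 4 fell (median -0.08). Slc16a7, the pyruvate and lactate carrier MCT2, fell to 166 ± 31.1 in IL-33 mice, against 743 ± 83.2 in vehicle mice (-2.17 ± 0.14, adjusted p = 6.25e-10). Mpc1, a subunit of the mitochondrial pyruvate carrier, fell by 1.18 on the log2 scale (SE 0.24, adjusted p = 0.000477). Pdhx, a structural subunit of the complex, rose by 0.90 ± 0.11 (adjusted p = 2.83e-06). Of 14 glycogen genes, 1 rose and 5 fell (median -0.22), with Pygl, a glycogen phosphorylase, at -0.81 ± 0.18 (adjusted p = 0.00112), and the phosphorylase kinase subunits Phka1 at -0.58 ± 0.12 (adjusted p = 0.000427) and Phka2 at -0.77 ± 0.08 (adjusted p = 3.46e-07).

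Of 12 other oxygen-sensing genes, 5 rose and 0 fell (median 0.26). Egln2, a second HIF hydroxylase, rose to 717 ± 68.7 in IL-33 mice, against 210 ± 36.9 in vehicle mice (1.78 ± 0.12, adjusted p = 1.73e-09). Its relative Egln1 fell by a small amount (-0.36), with overlapping groups and a call that was lost when some single mice were left out. Siah2, a ubiquitin ligase known to target EGLN enzymes, was at 222 ± 17.0 in IL-33 mice and 80.3 ± 22.6 in vehicle mice (1.5 ± 0.19, adjusted p = 2.32e-06). Hif3a, an alpha subunit with inhibitory splice forms, was at 342 ± 108 in IL-33 mice and 112 ± 47.8 in vehicle mice (1.67 ± 0.37, adjusted p = 0.00588), and among females alone at 1.66 with an adjusted p of 0.0957.

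Of 18 tested genes known as HIF targets in other settings, 8 rose and 4 fell (median 0.52). Lox, lysyl oxidase, was at 1049, 819, 600 and 679 in IL-33 mice, against 1.68, 1.09, 8.24 and 3.0 in vehicle mice, from 3106 and 15 reads. It was almost unread in vehicle mice, and its log2 fold change of 7.66 ± 0.38 (adjusted p = 2.7e-09) was 6.58 with a pseudocount of 5, 8.61 among females alone and 6.72 among males alone. Bnip3l, a mitophagy receptor related to Bnip3, fell to 208 ± 18.1 in IL-33 mice, against 847 ± 56.5 in vehicle mice (-2.02 ± 0.10, adjusted p = 2.05e-11).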

How the data were processed

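The deposited expression values are a signal: per the submitters' processing notes (FastQC, STAR 2.6.0, HTSeq 0.9.0, DESeq2 1.24.0, builds mm10 and GRCm38) and the deposited values themselves, the authors divided counts of reads per gene by 1 size factor per library. All values (100%) came to whole multiples of a library's smallest step within 0.001 reads, which gave back the reads. Per the file headers, the authors' deposited table of their own comparison holds mean normalized counts as signal, log2 fold changes with standard errors, a score (the fold change over its error), p-values and adjusted p-values. The sources used here do not give the strand setting, annotation release or filters, so genes with overlapping partners (Pfkp, Pkm, Gpi1, Hif1a, G6pdx, Pfkfb1, Pfkfb2, Bnip3) or pseudogene copies (Gapdh, Taldo1, Pgam1, Ldha) are uncertain.

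Tests used limma 3.58.1 in R 4.3.3 (eBayes with trend and robust) on log2(normalized count + 1), with terms for treatment and sex. The 15110 genes with 10 or more normalized counts in at least 4 of 8 libraries were fitted together, with two-sided Benjamini-Hochberg adjusted p-values. The fit was also run on simulated counts, with far fewer changed genes than were called here. Their library scaling was known, so that run did not check the scaling. A pseudocount of 1 understates the change of low genes. Alternatives were other pseudocounts, filters, scalings and priors, no sex term, 1 sex alone, leaving out each mouse, and edgeR 4.0.16 and DESeq2 1.42.0 on the recovered reads. Every pair of mice in a group differed beyond sampling noise (mean chi-square per gene 4.262 to 21.244 over 12 pairs), and each mouse counted as 1 replicate. Counting error from reads without molecular identifiers is a lower limit of the true error.

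Names and coordinates come from GENCODE M21 (GRCm38), where 53706 of 53801 identifiers were found, and promoters from RefSeq (GRCm38.p6). Levels of different genes were compared per kilobase of their merged exons. The members and lists were chosen with earlier results of these data known. Values in every mouse are given for members called with an absolute log2 fold change of 1 or more, for the member with the highest mean of each role, and for members whose call changed under an alternative; of each added list, up to 3 called genes with the largest change are named. A gene that met this rule is not reported here. Each of the 8 value columns carries the number of its mouse, and 0 columns were left unmapped. A planned comparison of protein sequences was not made.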

Additional observations from a re-analysis of the deposited data

Results flagged for a closer look

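Within the groups of 4 mice, the highest or lowest mouse of each of the 38 genes was examined for a gap to its nearest neighbour that was large against the range of its group. Of 76 groups examined, 4 had such a mouse, where chance gives about 1 group in 20. Pdk2 was at 14.1 normalized counts in IL-33 mouse 3, below the 26.7 to 27.4 of the other IL-33 mice (gap 0.949 of the range). Vhl was at 584 in IL-33 mouse 1, above the 471 to 489 of the others (0.835). Ldha was at 920 in vehicle mouse 6, above the 600 to 649 of the other vehicle mice (0.847). Gapdh was at 3618 in vehicle mouse 5, above the 3308 to 3360 of the others (0.834). All 4 genes kept their call and direction without the mouse concerned.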

How the results depend on the processing

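No paired analysis was possible because the mice are numbered 1 to 8 across the groups and no number is shared. Of the 26 called genes, 20 kept call and direction in all 20 alternatives tried, and 0 of the 38 had a call that reversed direction. Genes not called could change sign between fits. Bnip3 was at -0.24 over all mice and 0.36 among females alone, and Eno1 at 0.03 over all mice and -0.21 among males alone. Over these alternatives the 38 held 15 to 20 genes that rose (18 to 20 when 1 mouse was left out) and 6 to 8 that fell (6 to 8). All tested genes held 3221 to 4670 that rose and 3115 to 4715 that fell. With edgeR and with DESeq2 on the recovered reads, all 38 genes had the same call as with limma. The 12 genes whose call changed in at least 1 alternative were Slc2a3, Hk2, Gpi1, Pfkm, Pfkfb2, Tpi1, Gapdh, Pgam1, Slc16a3, Egln1, Bnip3 and Taldo1. Without the mean-variance trend in the prior, Hk2 (adjusted p = 0.0809), Slc16a3 (adjusted p = 0.106) and Egln1 (adjusted p = 0.0978) were not called. Among females alone Hk2 (0.17, adjusted p = 0.278) and Egln1 (-0.12, adjusted p = 0.623) were not called, and without the sex term Slc16a3 was not (adjusted p = 0.0554). The cause was not tested; fits on 1 sex hold 4 mice. The added pathway lists held 16 to 25 genes that rose and 18 to 25 that fell, and the marker lists 3 to 6 that rose and 12 to 15 that fell. Depth limits Slc2a6 and Lox, with 27 and 15 reads in all vehicle mice.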
